A study of Mus musculus with 12 samples.

Results

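The libraries described here were made from cells of the paraventricular nucleus of the hypothalamus (PVH), sorted from mice of the genotype Otp fl/fl; Ai14. They were chosen by their labels, AAV-Cre or AAV-GFP, and are 6 of the 12 libraries of the series, 3 in each group. In both groups the Otp alleles are floxed, and both carry Ai14, a reporter that makes the red protein tdTomato (TOM) once Cre recombinase has acted. An adeno-associated virus (AAV), a vector that enters cells and expresses its cargo in them, brought in either Cre or green fluorescent protein (GFP). The nucleus was dissected 12 weeks after injection, and the mice were 26 weeks old per the labels. The gate took TOM positive cells in the AAV-Cre group and GFP positive cells in the AAV-GFP group. Virus, gate and deletion of Otp therefore differ together, and their effects cannot be told apart. The sources used here name no viral serotype, no promoter that drives Cre or GFP and no floxed exon, and leave unsaid whether each library was a separate animal or a pool, so the p-values measure the spread between libraries, which may be technical. The study set out from excess weight gain and asked what differs between the cells that received either virus. The other 6 libraries, TOM positive and TOM negative hypothalamic cells of Mc4r-Cre; Ai14 mice aged 4 weeks, are used only where the called genes are looked up in them.

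The PVH is the hypothalamic nucleus whose neurons release oxytocin, vasopressin, corticotropin-releasing hormone, thyrotropin-releasing hormone and somatostatin, and it restrains feeding through cells that carry the melanocortin 4 receptor. Otp is a homeobox gene that these peptide neurons need during development. The nucleus lies against the wall of the third ventricle, which is lined by ependymal cells with beating cilia and, further down, by tanycytes, and it is densely supplied with capillaries. Sorted material from it can therefore hold mRNA of ependymal cells, vessels and glia besides that of neurons.

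Library totals were 15125868, 14375742 and 13506018 counts in AAV-Cre replicates 1, 2 and 3 and 19245171, 14545566 and 16075063 counts in AAV-GFP replicates 1, 2 and 3. Values of single libraries are given below in that order, as counts scaled to the TMM-adjusted library total (CPM). The AAV-Cre libraries held counts for 14747 to 16988 genes and the AAV-GFP libraries for 20778 to 23902. Of 15408 genes that passed the count filter, 1100 to 2313 had no count in an AAV-Cre library and 3 to 67 in an AAV-GFP library, so a 0 was more common in the AAV-Cre libraries. AAV-GFP replicate 2 stood apart from the other libraries of its group, with 476 genes at least 4-fold above both of them (on CPM + 1), where replicates 1 and 3 had 14 and 21. AAV-Cre replicate 1 had 726 genes at least 4-fold below both others of its group, where replicates 2 and 3 had 232 and 184. The study's text calls the sorted cells neurons. A list of 25 pan-neuronal genes took 0.509% to 0.627% of the counts after AAV-Cre and 0.398% to 0.536% after AAV-GFP, while 18 oligodendrocyte genes took 6.08% to 7.60% and 1.70% to 5.09%. Astrocyte genes took 1.35% to 1.84% and 1.42% to 2.68%. Both groups thus held neuronal mRNA and a good deal of glial mRNA. In such bulk libraries, fewer cells of a type and less RNA per cell cannot be told apart.

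**Figure D1:**
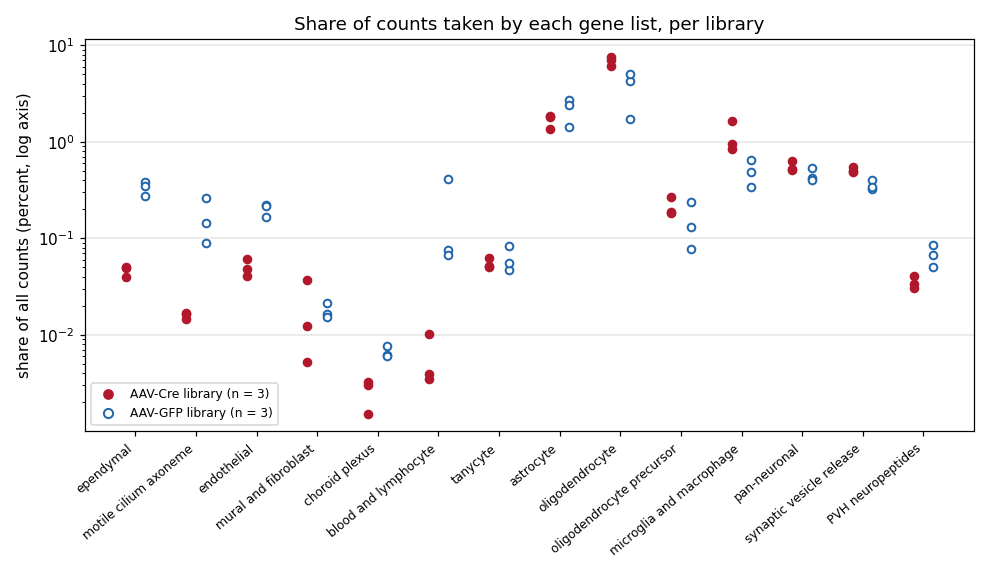
Share of all counts (percent, log axis) taken by each list of cell-type genes, with 1 point per library, for AAV-Cre (filled) and AAV-GFP (open), n = 3 libraries each. The ependymal, motile cilium, endothelial, choroid plexus and blood points of AAV-Cre lie below all AAV-GFP points, and those of oligodendrocytes and of microglia and macrophages lie above them.

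The floxed gene came first as a check of the labels. Otp (chromosome 13, 95012110 to 95021638, plus strand) was counted at 0.748, 0.611 and 0.687 CPM after AAV-Cre and 4.71, 7.39 and 2.67 CPM after AAV-GFP. All 3 AAV-Cre libraries lay below all 3 AAV-GFP libraries, with a log2 change of -2.84 ± 0.87 that did not pass (edgeR adjusted p = 0.134). A deleted allele may still be transcribed, and such reads would be counted here. Mc4r, the melanocortin 4 receptor gene, had no count in any AAV-Cre library against 22, 11 and 13 counts after AAV-GFP, a fold of at least 14.7 by counting error only, and did not pass (edgeR adjusted p = 0.0596). Sim1, which encodes another transcription factor of PVH neurons, had 0, 26 and 22 counts after AAV-Cre against 18, 12 and 9 after AAV-GFP, and its groups overlapped.

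Across genes, more mRNAs were lower than higher after AAV-Cre. Of 15408 genes tested with edgeR's quasi-likelihood test (adjusted p under 0.05), 400 passed (2.60%), 97 higher (0.630%) and 303 lower (1.97%), and 2896 had an unadjusted p under 0.05. The groups did not overlap in CPM for 1518 genes that were higher (9.85%) and 2873 that were lower (18.6%). The median log2 fold change of all genes tested was -0.16 with TMM scaling and -0.00 with library totals, under which 127 were higher and 241 lower, and the share of lower among the called genes went from 75.8% to 65.5%. Scaled to the summed pan-neuronal and synaptic genes, 28 were higher and 270 lower (90.6% lower), and with DESeq2 562 and 969 (63.3% lower). The summed genes include Syt11, which is also made in glia and was higher after AAV-Cre without passing. Its part in this scaling was not tested. The calls rest on all 6 libraries. Without AAV-Cre replicate 1, 2 or 3 there were 47, 11 and 30 genes higher and 249, 111 and 253 lower. Without AAV-GFP replicate 1 or 3 no gene passed with edgeR, with 2609 and 2342 at an unadjusted p under 0.05, and without AAV-GFP replicate 2 there were 0 higher and 2 lower, with 2880 at an unadjusted p under 0.05. None of the 400 genes passed in all 6 of these fits, and the most that any gene reached was 4 of 6. The main lists are therefore given with the range of their median over the 6 fits.

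Of the 303 genes that fell, 185 had 0 counts in all 3 AAV-Cre libraries and 25 had 1 to 3 counts over the group. Of all 15408 genes tested, 428 had 0 counts in all AAV-Cre libraries and 0 in all AAV-GFP libraries. That 0 of the 97 that rose had 0 counts in all AAV-GFP libraries was therefore fixed before any call. AAV-GFP replicate 1 was the highest of its group in 211 of the 303 (69.6%), against 33.3% of all genes tested. In the lists used, 39 of the 303 stood among genes of ependymal, cilium, vascular, blood or glial content, 2 among neuronal genes, 0 among cell-state genes, 5 in lists added after the values were seen and 257 in none. Of the 97, 8 stood in content lists, 2 in neuronal lists, 3 in cell-state lists, 3 in the added lists and 81 in none. The lists are short, so a gene in none may still belong to one of these kinds. Cfap45, Cfap61 and Tekt3, for example, fell and have symbols that begin like listed cilium genes, yet they stood in none. Absence was also seen for well counted genes. Of 8402 genes with at least 10 CPM in every AAV-GFP library, 53 (0.631%) had 0 counts in every AAV-Cre library, 9 of them in content lists and 0 in neuronal lists. Of 7761 genes with at least 10 CPM in every AAV-Cre library, 0 were at 0 in the AAV-GFP group, as for all genes tested. At 50 CPM, 3 of 2876 genes were absent after AAV-Cre.

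**Figure D2:**
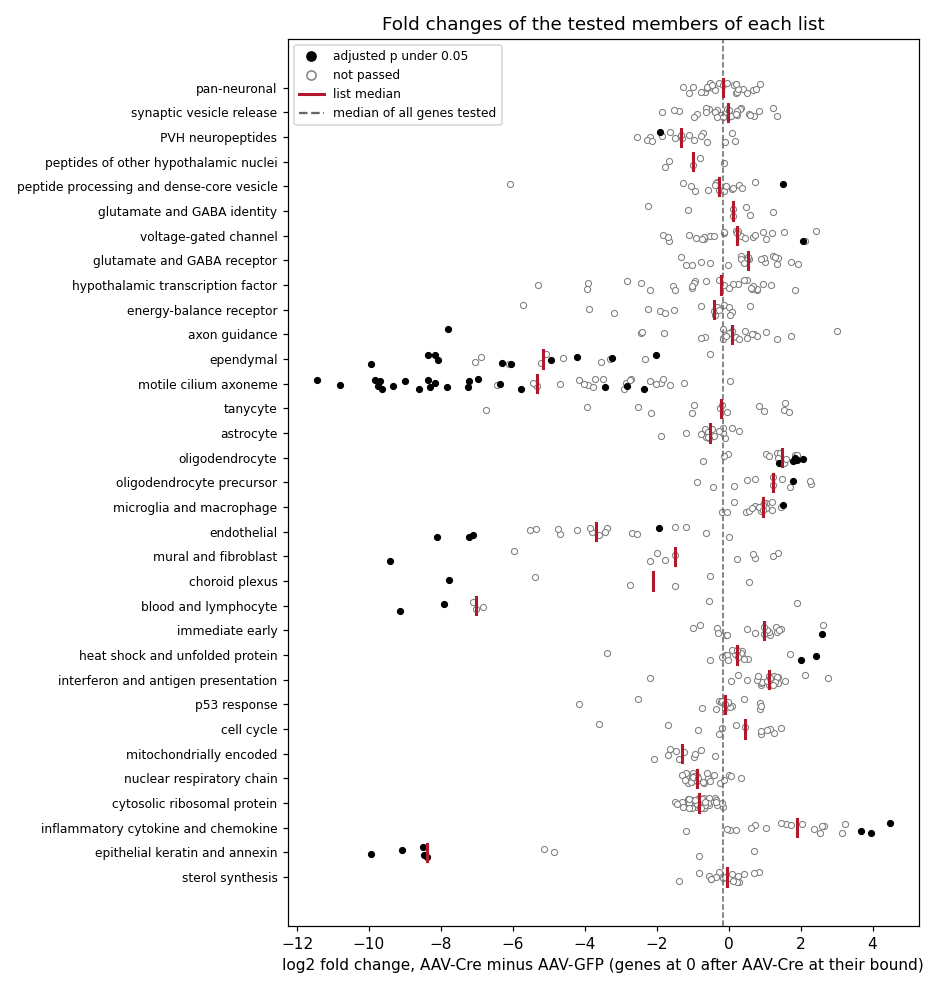
Log2 fold change (AAV-Cre minus AAV-GFP, edgeR) of every tested member of each list, 1 point per gene, with the list's median as a bar and called genes (adjusted p under 0.05) filled. Genes with 0 counts in all AAV-Cre libraries are plotted at the lower bound of their fold, and the dashed line marks the median of all genes tested, -0.16.

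Ependymal mRNAs were lower after AAV-Cre. Of 20 ependymal genes, all tested, 10 fell, 0 rose and 10 did not pass, against 1.97% of all genes that fell. For 19 of the 20 there was no overlap between the groups, S100b being the exception, against 18.6% of all genes lower without overlap, and the list's median log2 fold change was -5.16 (-5.97 to -5.00 with 1 library left out, in which fits 0 to 13 members fell), where that of all genes was -0.16. Its share of counts was 0.0465% ± 0.00564 of the counts after AAV-Cre and 0.335% ± 0.0553 after AAV-GFP (SD, n = 3), 7.21 times as much after AAV-GFP (exact permutation p = 0.1, two-sided, the smallest that 3 against 3 can give). Tmem212 (chromosome 3, 27920215 to 27950517, minus strand), a marker of ependymal cells that codes for a membrane protein, was counted at 0, 0.407 and 0.412 CPM after AAV-Cre and 435, 136 and 239.6 CPM after AAV-GFP. It was all but absent from each AAV-Cre library, and its log2 change was -9.93 ± 0.96 (edgeR adjusted p = 0.0202). Rarres2 (chromosome 6, 48546630 to 48549723, minus strand), which encodes the secreted chemoattractant chemerin, stood at 9.54, 13.6 and 17.6 CPM after AAV-Cre and 592, 303 and 359 CPM after AAV-GFP, a log2 change of -4.94 ± 0.42 (edgeR adjusted p = 0.0179). Tmem212 kept its call in 4 and Rarres2 in 4 of the 6 fits that each lack a library, the most of any gene. Pltp, a phospholipid transfer protein gene, fell by 3.25 ± 0.38 on the log2 scale and Vim, which encodes the intermediate filament vimentin, by 2.01 ± 0.36. The unnamed gene 1700012B09Rik had the smallest p of the list, at 1.62, 1.42 and 0.893 CPM after AAV-Cre and 123, 86.1 and 54.0 CPM after AAV-GFP and a log2 change of -6.05 ± 0.49 (edgeR adjusted p = 0.0179), and 1700094D03Rik was at 0 in each AAV-Cre library and at least 289-fold lower. Ccdc153, Rsph1, Mlf1 and Fam183b also fell, from 70.5 or more CPM to at most 3.77 CPM on average. Foxj1, the transcription factor gene that switches on the motile cilium programme, stood at 4.86, 4.48 and 2.89 CPM after AAV-Cre and 20.1, 84.2 and 16.4 CPM after AAV-GFP. Its AAV-GFP value rests in part on replicate 2, and it did not pass (log2 fold change -3.30 ± 0.74, edgeR adjusted p = 0.0556).

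Genes of the motile cilium, most of which code for parts of the axoneme, moved with the ependymal genes. Of 43 tested of 47 listed, 21 fell and 0 rose, against 1.97% of all genes that fell, and 40 were lower without overlap, against 18.6% of all genes. The median log2 fold change was -5.37, or -5.33 with the 12 members that had 0 counts in all AAV-Cre libraries placed at their bound (-7.93 to -4.49 with 1 library left out, in which fits 0 to 19 members fell). The list's share of counts was 0.0159% ± 0.00104 of the counts after AAV-Cre and 0.165% ± 0.0890 after AAV-GFP (SD, n = 3). Among dynein heavy chains, the motors of the outer and inner arms, Dnah12 had no count in any AAV-Cre library against 765, 234 and 216 counts after AAV-GFP and was at least 388-fold lower, and Dnah2, Dnah6, Dnah9 and Dnah10 were at 0 in each AAV-Cre library and at least 332-, 228-, 149.7- and 81.4-fold lower. Dnai2, an intermediate chain, kept some counts and stood at 12.2, 9.90 and 6.60 CPM after AAV-Cre and 96.2, 76.3 and 31.6 CPM after AAV-GFP, a log2 change of -2.83 ± 0.49 (edgeR adjusted p = 0.0356). Rsph4a, a radial spoke head gene, was at least 861-fold lower, Spag17, of the central pair apparatus, at least 285-fold, and Ak7 and Ak8, both adenylate kinase genes, at least 797- and 906-fold. Cfap52 had 1 count over the AAV-Cre group, a ratio of summed counts of 4177 (exact 95% interval 749 to 165002), and Drc7, of the nexin-dynein regulatory complex, likewise had 1 count and a ratio of 2628 (exact 95% interval 471 to 103849). Zmynd10, which is needed to preassemble dynein arms, fell from 49.5 to 0.0904 CPM on average. Cfap65 was at 0 in each AAV-Cre library and at least 317-fold lower. Cfap126, Dnali1, Cfap100 and Rsph9, a radial spoke head gene, kept some counts and fell from 57.5, 81.6, 38.6 and 122 to 0.455, 1.48, 3.53 and 24.04 CPM on average. Dnah1, an inner arm heavy chain, was the member that stood out, at 28.6, 18.2 and 23.2 CPM after AAV-Cre and 34.5, 17.9 and 16.1 CPM after AAV-GFP with overlapping groups and a log2 change of 0.03 ± 0.44. By symbol alone, 18 of 35 tested genes beginning with Cfap and 5 of 13 beginning with Dnah fell.

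To show sequence beside these values, the promoters of the cilium genes were searched for the half-site of the X-box, the element bound by RFX factors of ciliated cells, as GTTGCC or GGCAAC on either strand. The 250 bases before each gene's start were searched, from the RefSeq promoter table on GRCm38.p6. Of the 47 cilium genes listed, 37 had such a window and 13 held the half-site (35.1%), against 11.8% of all 27025 promoters and 13% of those of tested genes. Of the 21 cilium members that fell, 18 had a window and 3 held it (16.7%), and of all 303 genes that fell, 227 had a window and 53 held it (23.3%). The forkhead letters TGTTTAC or GTAAACA were in 2 of the 37 (5.41%) and in 1 of the 18 (5.56%), against 3.54% of all promoters. A match is a description of the letters only. The searched bases are printed for the cilium members that fell and had a match, in lower case, with the X-box half-site (Dnah10, Hydin and Cfap44) or the forkhead letters (Ak7) in capitals.

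Dnah10, chr5:124724835-124725084, plus strand: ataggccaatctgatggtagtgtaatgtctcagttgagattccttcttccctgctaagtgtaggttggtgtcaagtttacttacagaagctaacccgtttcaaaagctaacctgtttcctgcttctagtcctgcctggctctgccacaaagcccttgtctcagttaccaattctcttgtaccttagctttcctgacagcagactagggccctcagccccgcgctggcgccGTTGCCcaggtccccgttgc
Hydin, chr8:110266727-110266976, plus strand: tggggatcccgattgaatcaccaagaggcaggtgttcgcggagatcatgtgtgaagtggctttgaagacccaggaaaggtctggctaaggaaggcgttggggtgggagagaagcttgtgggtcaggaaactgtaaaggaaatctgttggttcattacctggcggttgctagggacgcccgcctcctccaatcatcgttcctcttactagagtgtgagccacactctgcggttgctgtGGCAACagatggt
Ak7, chr12:105705732-105705981, plus strand: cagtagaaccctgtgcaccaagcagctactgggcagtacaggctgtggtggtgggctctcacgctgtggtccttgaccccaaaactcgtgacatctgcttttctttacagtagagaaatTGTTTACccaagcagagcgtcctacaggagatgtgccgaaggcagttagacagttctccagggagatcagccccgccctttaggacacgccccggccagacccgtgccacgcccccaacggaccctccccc
Cfap44, chr16:44394549-44394798, plus strand: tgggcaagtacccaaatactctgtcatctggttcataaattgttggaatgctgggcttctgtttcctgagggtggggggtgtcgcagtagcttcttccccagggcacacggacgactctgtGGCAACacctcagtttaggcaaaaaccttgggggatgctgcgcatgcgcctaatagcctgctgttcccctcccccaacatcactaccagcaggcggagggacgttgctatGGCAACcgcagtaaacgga

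Other genes with the largest falls had the same pattern of counts. By the rule for named genes these were Ccdc3, Spag6l, Iqca, Cdhr4, Stoml3, Nme9, Fam216b, Got1l1, Anxa8, Ak8, Cfap206 and Rsph4a, all 12 at 0 counts in every AAV-Cre library. Spag6l, a central pair gene, was counted at 198, 66.2 and 56.9 CPM after AAV-GFP, a fall of at least 1775-fold. Stoml3, a stomatin-like membrane protein gene, stood at 141, 77.5 and 68.1 CPM and was at least 1520.2-fold lower, and Cdhr4, a cadherin-related gene, at 187, 58.7 and 54.3 CPM and at least 1661-fold lower. These 3 were the genes with at least 50 CPM in every AAV-GFP library and no count after AAV-Cre. Ccdc3 had the lowest fold change, at 195, 201 and 36.9 CPM after AAV-GFP, with replicate 3 far below the other two.

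Endothelial mRNAs had lower values too. Of 20 endothelial genes tested, 4 fell and 0 rose (1.97% of all genes fell), 17 were lower without overlap (18.6% of all genes were), and the median log2 fold change was -3.70 (-5.77 to -3.47 with 1 library left out). Their share of counts was 0.0498% ± 0.0104 of the counts after AAV-Cre and 0.201% ± 0.0298 after AAV-GFP (SD, n = 3). Bsg (chromosome 10, 79540325 to 79547803, plus strand), which encodes basigin, a surface glycoprotein enriched in brain capillaries but made by other cells as well, stood at 234, 245 and 275 CPM after AAV-Cre and 1008, 893 and 983 CPM after AAV-GFP. The groups were far apart beside the spread within each, with a log2 change of -1.94 ± 0.24 (edgeR adjusted p = 0.0202). Tie1, an endothelial receptor kinase gene, had no count in any AAV-Cre library against 311, 403 and 147 counts after AAV-GFP and was at least 275-fold lower. Abcb1a, which encodes the efflux pump P-glycoprotein of the blood-brain barrier, and Emcn, the endomucin gene, were at 0 in each AAV-Cre library and at least 150.3- and 137-fold lower. Kdr, Mfsd2a and Eng overlapped between the groups. Kdr, a vascular growth factor receptor gene, read 36.4, 16.1 and 0.206 CPM after AAV-Cre and 19.8, 16.5 and 16.0 CPM after AAV-GFP, so that 1 AAV-Cre library was above and 1 far below the AAV-GFP range. Of 11 mural and fibroblast genes 1 fell, Acta2 (chromosome 19, 34218490 to 34232990, minus strand), the smooth muscle actin gene, with no count in any AAV-Cre library against 1047, 528 and 575 counts after AAV-GFP and a fold at least 686 lower (edgeR adjusted p = 0.0202). Rgs5, a pericyte gene that tempers G protein signalling, read 0.0623, 3.46 and 4.05 CPM after AAV-Cre and 12.5, 5.65 and 16.2 CPM after AAV-GFP without passing (edgeR adjusted p = 0.388). The mural list as a whole had a median of -1.50 and overlapping shares of counts.

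Blood mRNA was present in the AAV-GFP libraries and close to absent after AAV-Cre. The list of blood and lymphocyte genes took 0.00584% ± 0.00374 of the counts after AAV-Cre and 0.186% ± 0.199 after AAV-GFP (SD, n = 3), with the AAV-GFP mean resting on replicate 3 (0.416%, against 0.0749% and 0.0680% in replicates 1 and 2). Of 7 members tested 2 fell (1.97% of all genes fell). Alas2, the first enzyme of haem synthesis in red cells, had no count in any AAV-Cre library against 396, 391 and 988 counts after AAV-GFP and was at least 567-fold lower, and Hba-a2, an alpha globin gene with a near-identical copy, read 0.249, 1.36 and 0.137 CPM after AAV-Cre and 42.3, 104 and 276 CPM after AAV-GFP. Ptprc, the leukocyte surface gene CD45, went the other way, at 36.6, 43.8 and 24.1 CPM after AAV-Cre and 9.98, 6.81 and 11.2 CPM after AAV-GFP, without passing (log2 fold change 1.90 ± 0.42, edgeR adjusted p = 0.0556). The list's median was -7.02, and -2.51 without AAV-GFP replicate 3, -3.10 without AAV-Cre replicate 1 and -10.32 without AAV-Cre replicate 2. Of 6 choroid plexus genes tested 1 fell, Folr1, a folate receptor gene, with no count in any AAV-Cre library against 312, 155 and 216 counts after AAV-GFP and a fold at least 218 lower. F5, the coagulation factor V gene, had no count in any AAV-Cre library against 88, 22 and 21 counts after AAV-GFP and did not pass (edgeR adjusted p = 0.0556), and Clic6, a chloride channel family gene, read 6.98, 10.5 and 22.3 CPM after AAV-Cre and 41.8, 44.7 and 24.9 CPM after AAV-GFP. Ttr, the transthyretin gene and the most abundant choroid plexus mRNA in tissue, was scarce in both groups, at 0.0623, 10.7 and 0 CPM after AAV-Cre and 3.67, 0.362 and 11.5 CPM after AAV-GFP, and overlapped.

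Keratin and annexin genes of epithelia were noticed among the largest falls and put in a list after their values were seen, so the list supports nothing beyond a description. Of 9 tested 5 fell, against 1.97% of all genes, and each of the 5 had 0 counts in all AAV-Cre libraries. Krt18, a simple epithelial keratin gene, had no count in any AAV-Cre library against 764, 625 and 302 counts after AAV-GFP and was at least 539.7-fold lower, and its partner Krt8 had no count in any AAV-Cre library against 553, 372 and 197 counts after AAV-GFP and was at least 358-fold lower. Anxa8, a phospholipid-binding annexin gene, was counted at 94.9, 51.0 and 38.5 CPM after AAV-GFP and was at least 985-fold lower. Krt15, another keratin gene, and Anxa1, another annexin gene, were at least 362- and 336-fold lower.

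**Figure D3:**
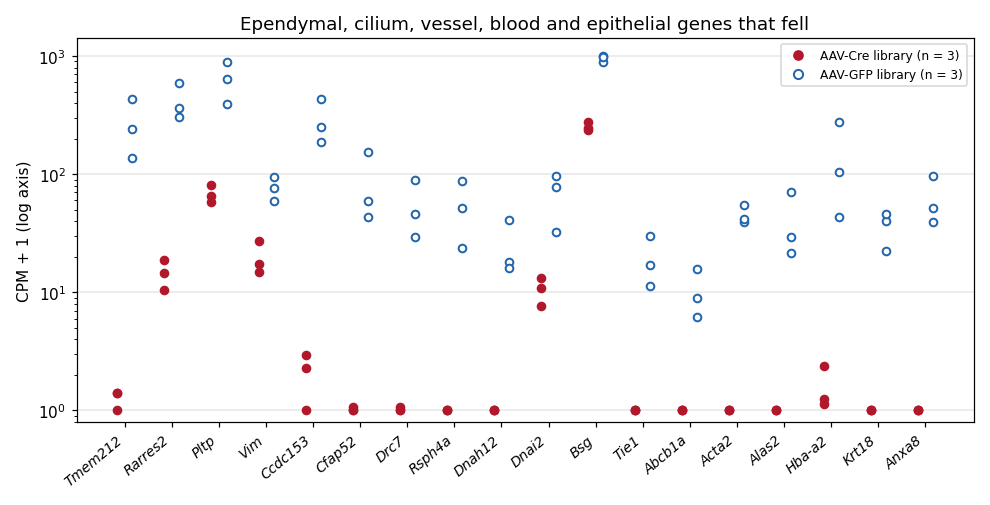
CPM (log axis of CPM + 1) in each library for called genes of ependymal cells, cilia, vessels, blood and epithelia, with AAV-Cre filled and AAV-GFP open, n = 3 libraries each. All AAV-Cre points lie below the AAV-GFP points of the same gene. Most sit at or near 0 CPM, while Pltp, Vim, Rarres2, Dnai2 and Bsg keep counts.

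For tanycytes, the elongated glia of the lower ventricle wall, and for astrocytes no gene passed. This covers 14 tanycyte genes of 16 listed and 18 astrocyte genes tested with edgeR, 0 of each called. The medians were -0.21 (-0.44 to 0.07 with 1 library left out) and -0.51 (-0.62 to -0.20). At an unadjusted p under 0.05 there were 3 and 2 members, against 2896 of all 15408 genes. With DESeq2 1 gene of each list fell, against 969 of all genes. Rax, a homeobox gene that defines tanycytes, had no count in any AAV-Cre library against 20, 12 and 16 counts after AAV-GFP, too few to place it, and was at least 15.3-fold lower (edgeR adjusted p = 0.0583). Sox9, a glial transcription factor gene, had the smallest p of the astrocyte genes, at 97.9, 57.2 and 69.5 CPM after AAV-Cre and 258, 403 and 169.9 CPM after AAV-GFP with a log2 change of -1.89 ± 0.39 (edgeR adjusted p = 0.0513). The neurotensin receptor gene Ntsr2 and the membrane protein gene Mlc1 of astrocytes stood at 1041 and 925 CPM after AAV-Cre and at 1773 and 1371 CPM after AAV-GFP on average, and neither passed.

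Oligodendrocyte mRNAs, which took the largest share of counts among the cell-type lists, had higher values after AAV-Cre. Of 18 genes tested 6 rose and 0 fell, against 0.630% of all genes that rose, the groups did not overlap for 15 (9.85% of all genes were higher without overlap), and the median log2 fold change was 1.48 (1.26 to 1.88 with 1 library left out, in which fits 0 to 1 members rose). Scaled to neuronal genes, the median was 1.24 and 1 member, Mag, passed. With DESeq2 13 rose, against 562 of all 15408 genes. Several of the 6 members that rose code for parts of myelin or for enzymes that make its lipids. Mag (chromosome 7, 30598601 to 30614298, minus strand), the myelin-associated glycoprotein gene, stood at 2090.1, 2232 and 1978 CPM after AAV-Cre and 667, 444 and 641 CPM after AAV-GFP, a log2 change of 1.85 ± 0.27 (edgeR adjusted p = 0.0258). Fa2h and Ugt8a, enzymes of the hydroxylated and galactosylated lipids of myelin, read 366 and 339.7 CPM after AAV-Cre and 107 and 90.8 CPM after AAV-GFP on average, log2 fold changes of 1.78 ± 0.26 and 1.90 ± 0.29. Mal, a myelin proteolipid gene, Ermn, which encodes a cytoskeletal protein of late oligodendrocytes, and Hapln2, a matrix protein gene of the nodes of Ranvier, rose by 1.41 ± 0.27, 2.07 ± 0.41 and 1.85 ± 0.35. Mbp, the myelin basic protein gene, overlapped between the groups, at 21573, 23378 and 16709 CPM after AAV-Cre and 17743, 7723 and 37471 CPM after AAV-GFP, and Mobp, another myelin protein gene, did so as well. Of 12 precursor genes 1 rose, Enpp6, a choline phosphodiesterase gene of newly forming oligodendrocytes, at 60.0, 70.3 and 82.9 CPM after AAV-Cre and 24.5, 18.3 and 18.9 CPM after AAV-GFP and a log2 change of 1.79 ± 0.29 (edgeR adjusted p = 0.0308). Gpr17, a receptor gene of committed precursors, and Sox10, a transcription factor gene of the whole lineage, did not pass (edgeR adjusted p = 0.125 and 0.153). Gpr17 read 66.3, 163 and 293 CPM after AAV-Cre and 20.8, 67.2 and 19.6 CPM after AAV-GFP. Sox10 read 183, 80.3 and 202 CPM after AAV-Cre and 19.9, 77.8 and 44.1 CPM after AAV-GFP, with AAV-Cre replicate 2 close to AAV-GFP replicate 2. Pdgfra, the receptor gene that defines precursors, spread from 6.48 to 242 CPM within the AAV-Cre group.

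Microglial and inflammatory mRNAs had higher values as well. Of all genes tested, 0.630% rose and 1.97% fell. The 19 microglia and macrophage genes tested had a median log2 fold change of 0.95 (0.62 to 1.31 with 1 library left out), with 1 that rose and 0 that fell, and took 1.14% ± 0.431 of the counts after AAV-Cre and 0.491% ± 0.150 after AAV-GFP (SD, n = 3). The member that rose was Csf1r (chromosome 18, 61233670 to 61265221, plus strand), the receptor of colony stimulating factor, at 1347, 1944 and 1305 CPM after AAV-Cre and 520.0, 591 and 499 CPM after AAV-GFP and a log2 change of 1.51 ± 0.27 (edgeR adjusted p = 0.0398). Cx3cr1, the fractalkine receptor gene of microglia, had log2 fold change 1.20 ± 0.30 and did not pass (edgeR adjusted p = 0.0708). Ctss, the lysosomal protease gene cathepsin S, read 1744, 3618 and 1367 CPM after AAV-Cre and 861, 336 and 1276 CPM after AAV-GFP, with every AAV-Cre library above every AAV-GFP library but no call (edgeR adjusted p = 0.220). Il1b (chromosome 2, 129206490 to 129213059, minus strand), the interleukin 1 beta gene, was counted at 121, 123 and 117 CPM after AAV-Cre and 2.07, 7.61 and 6.54 CPM after AAV-GFP. The AAV-Cre libraries were close to each other and far above the highest AAV-GFP library, with a log2 change of 4.48 ± 0.52 (edgeR adjusted p = 0.0202). Il1a, a related cytokine gene, read 109.8, 250.2 and 241 CPM after AAV-Cre and 17.6, 8.19 and 20.8 CPM after AAV-GFP, a log2 change of 3.68 ± 0.50 (edgeR adjusted p = 0.0233). The chemokine gene Ccl12 read 28.2, 82.6 and 41.6 CPM after AAV-Cre and 4.39, 1.16 and 4.29 CPM after AAV-GFP, and Ccrl2, which encodes a surface protein that binds chemerin, the product of Rarres2, read 98.1, 163 and 95.0 CPM after AAV-Cre and 17.9, 18.1 and 20.4 CPM after AAV-GFP and rose by 2.65 ± 0.32 on the log2 scale. A list of cytokine and chemokine genes was drawn up after these values were seen. Of 20 members tested, 3 rose (Il1b, Il1a and Ccl12) and 0 fell, and the median was 1.89. In the other sort of the series the 3 were lower in TOM positive than in TOM negative cells (log2 differences of -12.06, -3.39 and -5.32).

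Interferon and antigen presentation genes had a median log2 fold change of 1.12 over 22 tested, with 0 that passed with edgeR. At an unadjusted p under 0.05 there were 6, against 2896 of all 15408 genes. H2-D1, a class I gene with near-identical copies, stood at 1089.8, 2846 and 857 CPM after AAV-Cre and 405, 313 and 390.2 CPM after AAV-GFP (log2 fold change 2.11 ± 0.48, edgeR adjusted p = 0.0570), and AAV-Cre replicate 2 was far above the other libraries. Ifitm3, an antiviral membrane protein gene, was lower without passing, at 16.1 against 73.2 CPM on average. Cd74, the invariant chain gene of class II presentation, read 243, 592 and 43.4 CPM after AAV-Cre and 73.8, 11.8 and 44.1 CPM after AAV-GFP. With DESeq2, 3 members rose and 1 fell, against 562 and 969 of all 15408 genes. Immediate early genes, which respond within minutes to stimulation or handling, had a median of 0.99 over 19 tested, 1 of which rose (0.630% of all genes rose). This was Egr2, a zinc finger transcription factor gene, at 97.9, 167 and 147 CPM after AAV-Cre and 31.4, 16.7 and 20.4 CPM after AAV-GFP and a log2 change of 2.58 ± 0.36 (edgeR adjusted p = 0.0248). Fos and Jun, the subunits of the AP-1 factor, averaged 877 and 999 CPM after AAV-Cre and 415 and 398 CPM after AAV-GFP, and neither passed. Among 19 chaperone and stress genes 2 rose, Atf3, a stress-induced transcription factor gene, with 185, 237 and 250.0 CPM after AAV-Cre and 40.9, 67.8 and 58.9 CPM after AAV-GFP and a log2 change of 2.00 ± 0.30, and Hspa1b, an inducible HSP70 gene whose near-identical copy Hspa1a was not called, with a log2 change of 2.41 ± 0.49. Microglia can express many of these genes. The microglial share of counts given above moved with them, and its part in them was not tested.

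Among genes that all neurons share, none passed the test. Of 25 pan-neuronal and 28 synaptic vesicle genes, all tested with edgeR, 0 passed, and the medians were -0.17 (-0.24 to 0.23 with 1 library left out) and -0.02 (-0.23 to 0.32), beside -0.16 for all genes. At an unadjusted p under 0.05 there were 2 and 4 members, against 2896 of all 15408 genes. With DESeq2 0 and 2 passed, where 562 of all genes rose and 969 fell. Pan-neuronal genes took 0.553% ± 0.0646 of the counts after AAV-Cre and 0.451% ± 0.0747 after AAV-GFP (SD, n = 3), overlapping between the groups. Synaptic vesicle genes took 0.514% ± 0.0302 of the counts after AAV-Cre and 0.353% ± 0.0427 after AAV-GFP (SD, n = 3), 1.45 times as much after AAV-Cre and without overlap (exact permutation p = 0.1, two-sided). Much of that difference lay in Syt11, whose values are given below, while the list's median was -0.02. Syt1, the calcium sensor of vesicle fusion, had the smallest p of the pan-neuronal genes, at 77.9, 76.4 and 75.7 CPM after AAV-Cre and 35.9, 45.2 and 55.2 CPM after AAV-GFP (log2 fold change 0.76 ± 0.27, edgeR adjusted p = 0.189). Ndrg4, which followed, and Map2, a dendritic microtubule protein gene, overlapped between the groups, with log2 fold changes of 0.86 ± 0.37 and 0.68 ± 0.33. Resp18, a gene of dense-core vesicles, was lower without overlap, at 61.5, 85.7 and 80.6 CPM after AAV-Cre and 116, 87.0 and 145 CPM after AAV-GFP (log2 fold change -0.61 ± 0.29, edgeR adjusted p = 0.316). Sv2a, a vesicle glycoprotein gene, stood at 168, 121 and 226 CPM after AAV-Cre and 50.9, 92.1 and 74.9 CPM after AAV-GFP (log2 fold change 1.24 ± 0.35, edgeR adjusted p = 0.102). Syt11, a vesicle trafficking gene also made in glia, read 1986, 2297 and 2146 CPM after AAV-Cre and 1261, 396 and 893 CPM after AAV-GFP, and AAV-GFP replicate 2 was the lowest by far. Napb, a gene of SNARE recycling, was higher without overlap and Cplx2, a complexin gene, lower without overlap, with log2 fold changes of 0.69 ± 0.26 and -1.37 ± 0.51 that did not pass (edgeR adjusted p = 0.202 and 0.202). The glutamate and GABA identity genes gave 0 calls among 7 tested with edgeR, 0 at an unadjusted p under 0.05 and 0 with DESeq2. Slc17a6, the vesicular glutamate transporter gene of most PVH neurons, read 54.6, 55.3 and 14.4 CPM after AAV-Cre and 21.4, 11.4 and 20.1 CPM after AAV-GFP, and Slc32a1, the vesicular GABA transporter gene, 0.623, 0.204 and 1.10 CPM after AAV-Cre and 0.465, 6.01 and 2.81 CPM after AAV-GFP, both overlapping between the groups.

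PVH neuropeptide mRNAs had lower values after AAV-Cre, and 1 of them passed. Of 18 tested of 20 listed, 1 fell and 0 rose (1.97% of all genes fell), 9 were lower and 0 higher without overlap (18.6% of all genes were lower so), and the median log2 fold change was -1.32 (-1.58 to -0.88 with 1 library left out). Their share of counts was 0.0352% ± 0.00499 of the counts after AAV-Cre and 0.0673% ± 0.0172 after AAV-GFP (SD, n = 3), and each AAV-Cre library lay below each AAV-GFP library. Scaled to neuronal genes, the median was -1.50 with 1 that fell, beside -0.41 for all genes. With DESeq2 5 fell, against 969 of all 15408 genes. Sst (chromosome 16, 23708323 to 23709708, minus strand), the somatostatin precursor gene, stood at 11.4, 9.70 and 12.0 CPM after AAV-Cre and 31.2, 44.8 and 48.1 CPM after AAV-GFP, with a log2 change of -1.91 ± 0.36 (edgeR adjusted p = 0.0422). With any 1 library removed it passed in 0 of 6 fits (edgeR adjusted p at most 0.180) and it had a log2 fold change of -2.13 when scaled to neuronal genes. Oxt (chromosome 2, 130418093 to 130418974, plus strand), the oxytocin precursor gene, was counted at 38.7, 30.7 and 55.7 CPM after AAV-Cre and 153, 200.1 and 94.7 CPM after AAV-GFP. Its groups did not overlap, and it lay just outside the threshold (log2 fold change -1.84 ± 0.38, edgeR adjusted p = 0.0510). Trh (chromosome 6, 92219042 to 92221631, minus strand), the precursor of thyrotropin-releasing hormone, read 12.1, 3.12 and 5.98 CPM after AAV-Cre and 45.0, 50.1 and 28.9 CPM after AAV-GFP (log2 fold change -2.55 ± 0.57, edgeR adjusted p = 0.0556). Penk, the enkephalin precursor gene, read 3.87, 4.21 and 8.93 CPM after AAV-Cre and 28.1, 26.9 and 20.1 CPM after AAV-GFP, again with no overlap (log2 fold change -2.14 ± 0.53, edgeR adjusted p = 0.0673). Gal, Cartpt, Nmb and Ghrh, the genes of galanin, CART, neuromedin B and growth hormone-releasing hormone, did not overlap either, with log2 fold changes of -1.33 ± 0.57, -1.31 ± 0.70, -2.27 ± 0.71 and -2.18 ± 1.03 that did not pass. Avp, the vasopressin precursor gene, overlapped, at 145, 208 and 247 CPM after AAV-Cre and 297, 467 and 213 CPM after AAV-GFP (log2 fold change -0.71 ± 0.36), and Crh, the stress hormone gene of the nucleus, read 0, 3.19 and 5.02 CPM after AAV-Cre and 9.77, 8.99 and 6.62 CPM after AAV-GFP, with 1 AAV-Cre library at 0 counts and no call (edgeR adjusted p = 0.600). Of the 18 log2 fold changes 16 were below 0, and those above 0 were of Nucb2 and Cck, at 0.09 ± 0.51 and 0.16 ± 1.28 (-0.21 and -0.00 with neuronal scaling). Peptide genes of other hypothalamic nuclei gave 0 calls among 5 tested with edgeR and 0 with DESeq2. At an unadjusted p under 0.05 there was 1, against 2896 of all 15408 genes. All 5 had log2 fold changes below 0, with a median of -1.003, and they took 0.00363% ± 0.00127 of the counts after AAV-Cre and 0.00681% ± 0.00225 after AAV-GFP (SD, n = 3), overlapping between the groups. The ratio of the mean shares, AAV-Cre over AAV-GFP, was 0.533, and that of the PVH peptides was 0.523. Pomc and Npy, of the arcuate nucleus, were lower without overlap. Pomc read 3.93, 1.70 and 3.92 CPM after AAV-Cre and 7.86, 11.4 and 11.0 CPM after AAV-GFP, and Npy read 5.67, 4.27 and 1.03 CPM after AAV-Cre and 16.0, 9.64 and 12.2 CPM after AAV-GFP.

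**Figure D4:**
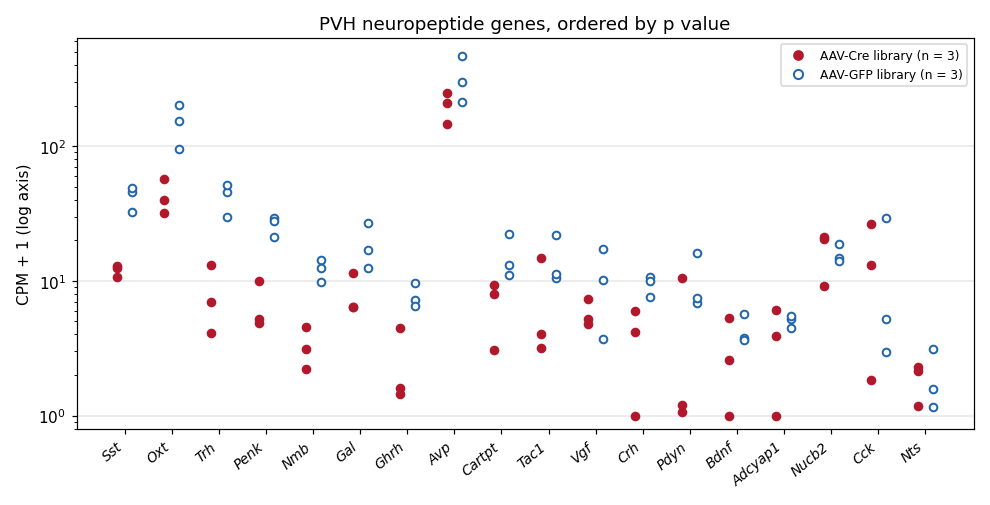
CPM (log axis of CPM + 1) in each library for the tested PVH neuropeptide genes, ordered by p value, with AAV-Cre filled and AAV-GFP open, n = 3 libraries each. For Sst, Oxt, Trh, Penk, Nmb, Gal, Ghrh, Cartpt and Crh the 3 AAV-Cre points lie below the 3 AAV-GFP points.

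Genes for peptide processing gave 1 call among 17 tested, upward (0.630% of all genes rose). Sez6l2, a transmembrane protein gene of neurons, stood at 158, 116 and 143 CPM after AAV-Cre and 53.4, 44.1 and 48.1 CPM after AAV-GFP, a log2 change of 1.52 ± 0.26 (edgeR adjusted p = 0.0338). Pcsk1, the prohormone convertase that cleaves several peptide precursors, had no count in any AAV-Cre library against 48, 115 and 48 counts after AAV-GFP, at least 67.3-fold lower by counting error, and did not pass (edgeR adjusted p = 0.0510). Of 26 voltage-gated channel genes 1 rose, Kcna1 (chromosome 6, 126617360 to 126623347, minus strand), the Kv1.1 potassium channel gene, at 148, 113 and 65.5 CPM after AAV-Cre and 23.8, 29.7 and 25.1 CPM after AAV-GFP and a log2 change of 2.05 ± 0.36 (edgeR adjusted p = 0.0356). Another relative, Kcna6, is outside the list and rose as well (log2 fold change 2.14 ± 0.34, edgeR adjusted p = 0.0292). By symbol alone, 2 of 78 tested genes beginning with Kcn rose and 1 fell, Kcnmb1. In the list, the Kcna1 relative Kcna2 and the sodium channel gene Scn3a had no overlap between the groups either, without passing. Kcna2 read 53.6, 37.7 and 39.5 CPM after AAV-Cre and 14.3, 8.84 and 21.7 CPM after AAV-GFP, and Scn3a read 43.1, 21.8 and 30.0 CPM after AAV-Cre and 9.51, 3.70 and 4.22 CPM after AAV-GFP. Of 22 glutamate and GABA receptor genes 0 passed with edgeR, and the median was 0.52. An unadjusted p under 0.05 was found for 3 (2896 of all 15408 genes), and 2 rose with DESeq2 (562 of all genes). Gria4, an AMPA receptor subunit, stood at 37.0 CPM after AAV-Cre against 9.71 CPM after AAV-GFP on average. Sez6l2 passed in 0 and Kcna1 in 1 of the 6 fits that each lack a library, and with neuronal scaling neither passed, at log2 fold changes of 1.25 and 1.77 (edgeR adjusted p = 0.0638 and 0.0522). The oligodendrocyte share of counts was also higher after AAV-Cre. Its part in the rises of Kcna1, Kcna6 and Sez6l2 was not tested, so they cannot be placed in neurons alone.

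Hypothalamic transcription factor genes gave 0 calls among 28 tested with edgeR (5 at an unadjusted p under 0.05, 3 with DESeq2), with a median of -0.21. Over all 15408 genes, 2896 had an unadjusted p under 0.05, and with DESeq2 562 rose and 969 fell. Tbx3, a T-box gene, had no count in any AAV-Cre library against 60, 43 and 20 counts after AAV-GFP and was at least 39.3-fold lower (edgeR adjusted p = 0.0528). Six3, a homeobox gene, read 20.1, 13.6 and 11.8 CPM after AAV-Cre and 36.9, 179 and 30.5 CPM after AAV-GFP, a difference that AAV-GFP replicate 2 enlarged. Energy-balance receptor genes gave 0 calls among 17 (3 at an unadjusted p under 0.05, 1 with DESeq2). Npy2r, which encodes a receptor of peptide YY and neuropeptide Y, had no count in any AAV-Cre library against 114, 38 and 13 counts after AAV-GFP and was at least 52.7-fold lower (edgeR adjusted p = 0.0583). Cckbr, a cholecystokinin receptor gene, read 0, 5.16 and 7.76 CPM after AAV-Cre and 65.5, 31.3 and 20.3 CPM after AAV-GFP, without passing. Calcr, the calcitonin receptor gene, had 0, 0 and 32 counts after AAV-Cre against 110, 40 and 28 after AAV-GFP, and overlapped. Of 23 axon guidance genes 1 fell (1.97% of all genes fell). This was Sema3c, a secreted semaphorin gene, with no count in any AAV-Cre library against 298, 292 and 114 counts after AAV-GFP. It was at least 225-fold lower (edgeR adjusted p = 0.0261). For Tbx3, Npy2r, Calcr and Sema3c, the larger number of genes at 0 counts in the AAV-Cre libraries moves with these values, and its part was not tested. Efnb3, an ephrin gene, read 269, 172 and 242 CPM after AAV-Cre and 38.1, 109 and 58.6 CPM after AAV-GFP without passing (edgeR adjusted p = 0.0666).

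The listed genes of energy metabolism and translation had lower values, without a call. By symbol alone, 2 of 47 tested genes beginning with Nduf fell, against 1.97% of all genes. These were Ndufb5 and Ndufc1, which are outside the list (edgeR adjusted p = 0.0438 and 0.0405). Of 39 cytosolic ribosomal protein genes 0 passed with edgeR, and all 39 log2 fold changes were below 0, with a median of -0.81 (-1.06 to -0.31 with 1 library left out). For 9 of them the values were lower without overlap (18.6% of all genes were). The 26 nuclear-coded respiratory chain genes had a median of -0.88 and 0 calls, with 17 lower without overlap, and 10 mitochondrially encoded genes had a median of -1.30 and 0 calls. The latter took 1.73% ± 0.290 of the counts after AAV-Cre and 2.93% ± 2.36 after AAV-GFP (SD, n = 3), with 5.57% in AAV-GFP replicate 3, without which their median was 0.05. Among p53 response genes Fas, a death receptor gene, read 0.187, 2.37 and 2.89 CPM after AAV-Cre and 54.7, 21.7 and 21.1 CPM after AAV-GFP, and 0 of 17 passed. Cell cycle genes gave 0 calls among 13. The 0 calls hold for the lists only. Outside them, the cell cycle genes Ccnd2, Wee1 and Mybl2 and the p53 target gene Perp fell. Sterol synthesis genes, a list added after the values were seen, gave 0 calls among 18 and a median of -0.04. At an unadjusted p under 0.05 there were 15 ribosomal, 15 respiratory chain, 1 mitochondrial, 2 p53 response, 2 cell cycle and 0 sterol members. DESeq2 called 1 ribosomal, 4 respiratory chain and 1 p53 response gene, all lower, and 0 of the others. Over all 15408 genes, 2896 had an unadjusted p under 0.05, and with DESeq2 969 fell.

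The largest rises are named here by rule. The oligodendrocyte and microglial shares of counts were higher after AAV-Cre as well, and their part in these rises was not tested. By the rule for named genes the 12 were H2-Q6, Hmga1b, Il1b, Atp10b, Ccl12, Ly9, Il1a, Erbb3, Sec14l5, Abca6, B3galt5 and Ccrl2, of which H2-Q6 and Hmga1b have near-identical copies and are uncertain. Erbb3 (chromosome 10, 128403392 to 128425521, minus strand), a neuregulin receptor gene, stood at 88.6, 49.5 and 72.9 CPM after AAV-Cre and 5.12, 9.20 and 5.35 CPM after AAV-GFP, a log2 change of 3.42 ± 0.41 (edgeR adjusted p = 0.0202). Sec14l5, of a family of lipid transfer proteins, read 129.5, 84.5 and 57.0 CPM after AAV-Cre and 6.67, 13.2 and 8.23 CPM after AAV-GFP, and Atp10b, a lipid-flipping ATPase gene, read 23.9, 16.3 and 25.6 CPM after AAV-Cre and 1.71, 0.725 and 1.62 CPM after AAV-GFP. Each of these had every AAV-Cre library above every AAV-GFP library. B3galt5, a galactosyltransferase gene, and Abca6, an ABC transporter gene, rose by 2.82 ± 0.50 and 3.23 ± 0.64 on the log2 scale, and Ly9, a leukocyte receptor gene, by 3.73 ± 0.68.

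**Figure D5:**
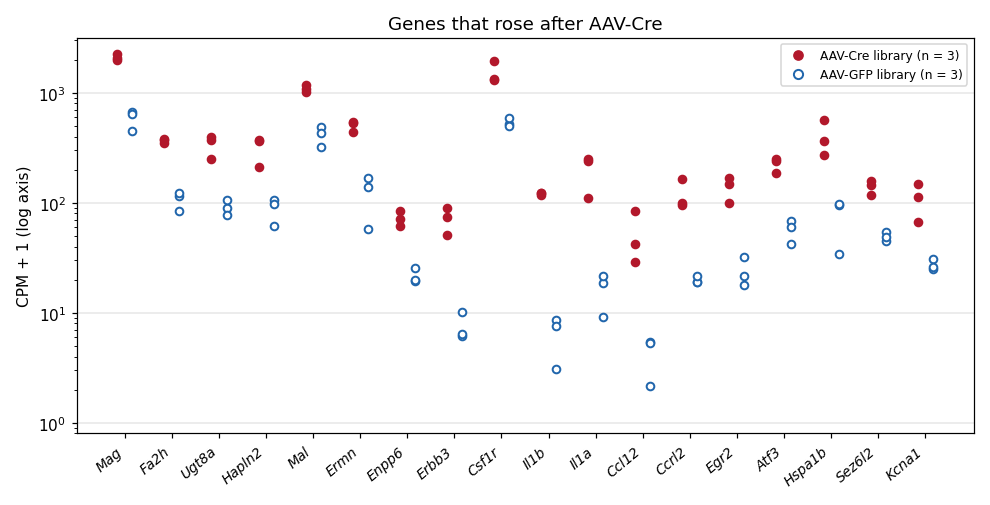
CPM (log axis of CPM + 1) in each library for called genes that were higher after AAV-Cre, with AAV-Cre filled and AAV-GFP open, n = 3 libraries each. They come from glial, inflammatory, immediate early, chaperone and stress, and neuronal lists, except Erbb3 and Ccrl2, which are in no list. Every gene shown has its 3 AAV-Cre points above its 3 AAV-GFP points.

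The called genes were looked up in the other sort of the series, in which TOM marks hypothalamic cells with a history of Mc4r-Cre and no virus was used. Both that sort and the AAV-Cre group were gated on TOM. Of the 97 genes higher after AAV-Cre, 96 were tested there, and 59 passed as higher and 19 as lower in TOM positive cells (edgeR), with a median log2 difference of 1.45. Of 13975 genes tested in both data sets, 1561 were higher (11.2%) and 1867 lower (13.4%), with a median of -0.00. Of the 303 genes lower after AAV-Cre, 175 were tested there, and 1 passed as higher and 34 as lower, with a median of -0.79. The genes that rose differed in direction in that sort. Mag, Fa2h, Ugt8a, Hapln2, Mal, Ermn and Enpp6 were higher in TOM positive cells, as were Erbb3, Kcna1 and Sez6l2, while Il1b, Il1a, Ccl12, Ly9, Ccrl2, Csf1r, Egr2, Atf3 and Hspa1b were lower. This is a description of 6 other libraries from younger mice and was not tested against chance.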

How the data were processed

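mRNA of sorted PVH cells was sequenced, and the authors deposited whole-number read counts per gene. FastQC, Trim Galore, STAR and featureCounts are named in the submitters' processing notes. featureCounts 2.0.1 and GENCODE vM30 are given per the file headers. The notes name mm10 while the headers name vM30, and the gene positions printed are those of the vM30 annotation in the files. Strand handling is not given in the sources used here, so a gene and its antisense partner may share reads. Promoters are RefSeq windows on GRCm38.p6.

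AAV-Cre was compared with AAV-GFP (3 libraries each) by edgeR 4.0.16 (R 4.3.3) with filterByExpr, TMM scaling, the quasi-likelihood test and Benjamini-Hochberg adjustment over 15408 of 55809 genes, tested on simulated data before use. A fold against a group at 0 counts is a lower bound from 3 counts over the group. Where 1 to 3 counts were found, the ratio has an exact 95% interval that covers counting error only, since PCR copies carry no molecular identifier. The ± beside a log2 fold change is its standard error. Alternatives were RLE, library totals or neuronal genes for scaling, no filter, a replicate block, DESeq2 1.42.0, limma 3.58.1 (voom), removal of mitochondrial or cell-content genes, equal depth and each library left out. Libraries of a group differed by far more than counting noise, so none was a copy of another.

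By rule, the genes to name were Otp, Mc4r, Sim1, the 12 largest changes in each direction among called genes with no overlap and a mean of 10 CPM or more in one group, and in each list the 4 smallest p-values and every called member, or all of a list of 10 or fewer. Of these the text gives every called list member and, in part, the uncalled ones. Anxa1, Avp, Cartpt, Ccnd2, Cck, Crh, Dnah1, Eng, Foxj1, Gal, Ghrh, Kcna6, Kcnmb1, Kdr, Krt15, Krt18, Krt8, Mbp, Mfsd2a, Mobp, Mybl2, Ndufb5, Ndufc1, Nmb, Nucb2, Pdgfra, Perp, S100b and Wee1 fall outside that rule and were chosen after their values were seen. The 30 lists were chosen with earlier results of these data known, and 3 more after their values were seen.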

Additional observations from a re-analysis of the deposited data

How the results depend on the processing

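The number of genes that rose after AAV-Cre (97 with edgeR and TMM scaling) was 28 with neuronal scaling, 160 with no count filter, 562 with DESeq2 and 152 with limma voom. The number that fell (303) was 552 with no count filter, 969 with DESeq2 and 198 without cell-content genes. With 1 library left out the counts ranged from 0 to 47 and from 0 to 253. RLE size factors, library totals, removal of mitochondrially encoded genes and thinning to equal depth kept both counts within 1.5 times. Otp had a log2 fold change of -2.80 with DESeq2, where it passed (adjusted p = 0.0364). The causes were not tested, except that leaving out a library leaves fewer samples.

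Replicate numbers are shared by the groups. Deviations of same-numbered libraries from their group means correlated at -0.083, -0.092 and -0.068, which gave no sign of a pairing. With 3 libraries per group these values cannot settle whether same-numbered libraries share a day or batch. With the replicate block, 0 genes rose and 0 fell (edgeR, 2013 at an unadjusted p under 0.05).

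Some uncalled genes changed sign. With RLE size factors Mbp was at 0.0133, with library totals Mbp at 0.15 and Mobp at 0.0382, without the filter Kdr at -0.00974 and with DESeq2 Mbp at 0.0133. With neuronal scaling the values were -0.00259 for Cck, -0.29 for Dnah1, -0.34 for Kdr and -0.21 for Nucb2. With the replicate block they were -1.04 for Kdr, 0.24 for Mbp, -0.00224 for Nucb2 and -0.31 for Sim1. With limma voom they were -0.49 for Cck, -2.48 for Kdr, 0.0356 for Mbp, -0.14 for Nucb2 and -0.10 for Sim1. With 1 library left out, the ranges were -0.83 to 2.14 for Cck, -0.15 to 0.52 for Dnah1, -1.10 to 0.58 for Kdr, -0.44 to 0.78 for Mbp, -0.42 to 0.16 for Mobp, -0.12 to 0.40 for Nucb2, -0.0707 to 1.91 for Pdgfra, -0.78 to 0.17 for S100b, -0.11 to 1.00 for Sim1 and -7.02 to 0.90 for Ttr.

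Mc4r, Rax and Sim1 had at most 26 counts in any library, and a 0 in the AAV-Cre libraries is a limit of detection at this depth.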
